A study of Solanum lycopersicum with 24 samples.

Results

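The salt response of wild-type tomato (WT, cv. Moneymaker) was compared between leaves and roots on 12 of the 24 arrays of the series, the 3 arrays each of leaf control, leaf salt, root control and root salt. All plants were grown in hydroponics in half-strength Hoagland solution. Six-week-old plants received 200 mM NaCl for 5 days, at a lower concentration on the first day, and the roots and the leaflets of the youngest leaf that had fully expanded were then frozen. Control organs were taken before salt was applied, so that every change between salt and control also contains 5 days of growth, and the salt and the growth cannot be told apart. Each array carried RNA pooled from 3 plants, and the sources used here do not say whether the leaves and roots of 1 replicate came from the same plants. The other 12 arrays hold the same groups of the *res* mutant, which differs from WT in its growth without stress, and are used here for 1 comparison.

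For each of 67795 probe sets the leaf change (salt minus control) and the root change were taken as differences of group means on the log2 scale, with n = 3 arrays per group. Their difference, leaf change minus root change, is called the organ difference below and is positive where the transcript rose more, or fell less, in leaves. A change was called a DEG, and an organ difference was called, where limma gave an adjusted p (Benjamini-Hochberg, all probe sets) below 0.05 and the size was at least 2-fold. The files hold no detection calls. The median of all values was 2.03, and where a group reads near or below it the transcript may not be above background, a fall cannot be seen, and a fold against that group is best read as a lower bound. A gene symbol other than a LOC number was available for 873 genes, and all genes named are from these. An array value is the amount of a transcript in a constant amount of RNA, and a change in transcript per cell and a change in the share of cells that carry it cannot be told apart in whole organs.

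Salt reaches a plant through the root as lowered water potential and later as sodium in the tissue. Both organs respond through abscisic acid (ABA), which frees protein kinases from PP2C phosphatases and so induces dehydrins and other protective proteins. Leaves have in addition a photosynthetic apparatus with its carotenoids, and roots take up mineral nutrients, so part of the transcripts that salt can change exist mainly in 1 of the organs. Sodium itself is moved out of the cytosol by the SOS1 antiporter of the plasma membrane and by the NHX antiporters of the vacuole and other compartments.

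The arrays carried the organ that their labels give. All 8 nuclear photosynthesis genes measured were higher on every leaf control array than on any root control array, by 3.94 to 8.81 on the log2 scale, and so were all 11 plastid-encoded photosystem genes, by 0.52 to 3.67. All 5 root markers (*fer*, *FRO1*, *NRAMP1*, *PT2* and *RSI-1*) were higher on every root control array. One array in each organ stood apart from its own group. Replicate 1 of the leaf controls lay more than 2-fold away from the average of its group mates at 2494 probe sets, and replicate 3 of the salt-stressed roots did so at 1399. The other WT arrays ran from 78 to 1054. Values without both are given for some genes and lists, not for every call that leaving them out changes. Both arrays were picked from these same values for their distance from their group mates, and leaving them out lowers the spread within groups. Adjusted p and calls without both are therefore a guide only.

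Salt changed more transcripts in leaves than in roots, and few in both. Leaves had 4687 DEGs (6.91% of the probe sets tested), 3073 risen (4.53%) and 1614 fallen (2.38%), and roots had 1714 (2.53%), 941 risen (1.39%) and 773 fallen (1.14%). The organs shared 435 DEGs, of which 355 moved in the same direction, 242 risen (0.357%) and 113 fallen (0.167%). The 355 are 7.57% of the leaf DEGs and 20.7% of the root DEGs. The other 80 moved in opposite directions, 33 (0.0487%) up in leaves and down in roots and 47 (0.0693%) down in leaves and up in roots.

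The organ difference itself was called for 4837 probe sets (7.13%), 2873 higher in leaves (4.24%) and 1964 lower (2.9%). A transcript that is a DEG in 1 organ only has not thereby been shown to differ between the organs. With the difference tested as well, 2916 probe sets responded in leaves only, 1878 risen (2.77%) and 1038 fallen (1.53%), and 925 in roots only, 473 risen (0.698%) and 452 fallen (0.667%). For a further 1336 leaf DEGs and 354 root DEGs the change in the other organ was not a DEG, but the organ difference was not called. Across all probe sets, which are not independent replicates, the leaf and root changes correlated weakly (Pearson's r = 0.222). Without both arrays that stand apart the called organ differences came to 6764 and the opposite responses to 162. Among the 873 named genes the organ difference was higher in leaves for 108 (12.4%) and lower for 97 (11.1%), both shares above those of all probe sets, so that counts within the gene lists below are best read against these.

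**Figure D1:**
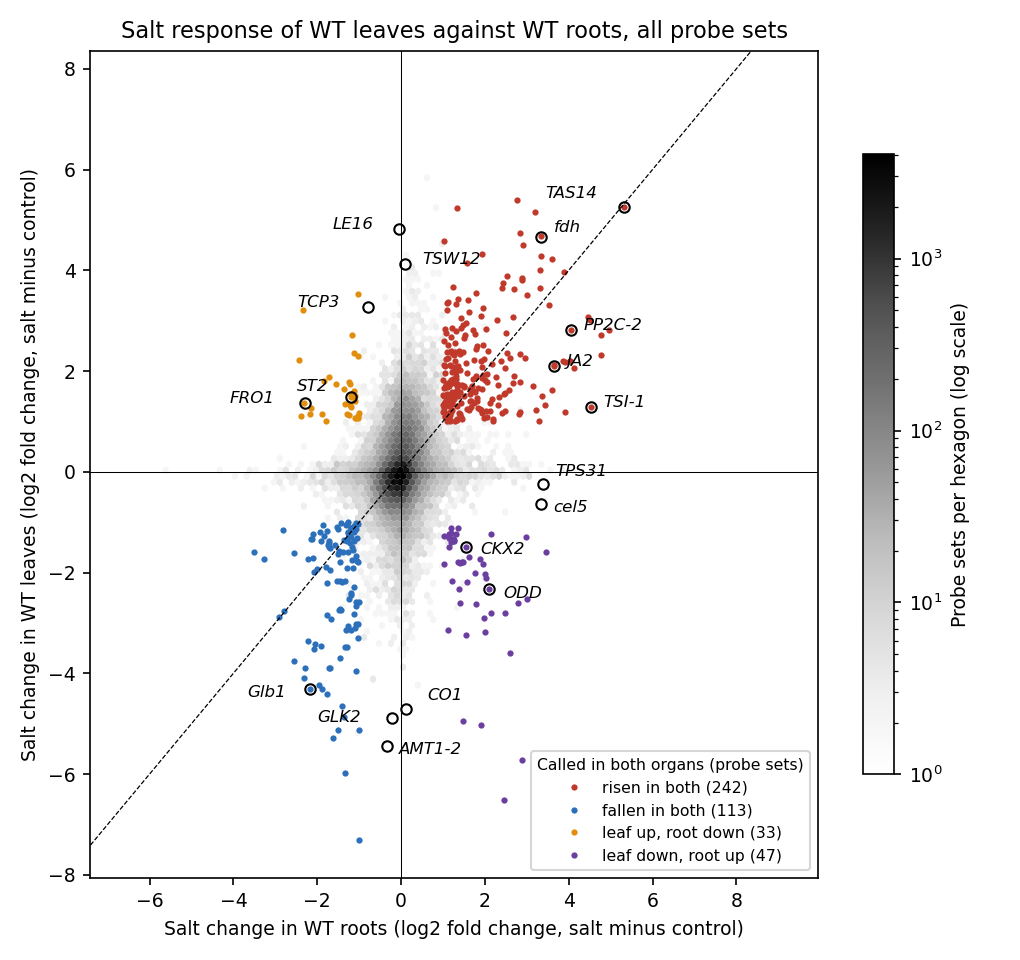
Salt change in WT roots (x axis) and in WT leaves (y axis) as log2 fold change, salt minus control, means of 3 arrays per group. Grey hexagons hold all 67795 probe sets on a log scale of density, coloured points are the 435 probe sets that were DEGs in both organs, circled points are named genes, and the dashed line marks equal change. *TAS14* lies on the line, *LE16* and *TSW12* lie on the vertical axis high in leaves, *AMT1-2*, *CO1* and *GLK2* lie on it low in leaves, and *cel5* and *TPS31* lie to the right.

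A few genes of the ABA and dehydration response rose in both organs without a called organ difference. These were 3 of 5 dehydrins and related proteins (*TAS14*, *GolS2* and *ASR1*) and 2 of 12 genes of ABA synthesis, breakdown and signalling (*PP2C-1* and *PP2C-2*). *TAS14*, a dehydrin, read 2.32, 3.19 and 2.95 on the log2 scale in leaf controls and 8.04, 8.09 and 8.11 in leaf salt. In roots it read 1.85, 2.44 and 1.82 in control and 7.57, 7.67 and 6.87 in salt. All salt arrays lay far above all control arrays, by 38.2-fold in leaves and 40.3-fold in roots. The organ difference of *TAS14* was -0.07, with a 95% interval of -0.85 to 0.7 (limma, adjusted p = 0.948). As measured, this leaves room for a difference of somewhat under 2-fold either way. The root controls of *TAS14* lay near the median of all values, so its root rise is best read as a lower bound. The organ difference may then lie below this interval. *GolS2*, a galactinol synthase of the raffinose pathway, rose 3.79-fold in leaves and 3.86-fold in roots, with an organ difference of -0.03 and an interval of -0.7 to 0.65. *ASR1*, an ABA-, stress- and ripening-induced protein, changed by 1.65 in leaves and 1.64 in roots on the log2 scale. In the dehydrin list only *ER5*, a LEA-type protein, had a called organ difference. *ER5* fell in leaves from between 8.21 and 8.86 to between 4.7 and 5.18 (log2 change -3.5 ± 0.25 SE). Its root change of -0.74 was not called (organ difference -2.77 ± 0.35, limma, adjusted p = 0.00024). Without both arrays that stand apart the root change was -1.04 (limma, adjusted p = 0.000643), so that *ER5* then fell in both organs.

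The PP2C phosphatases hold back ABA signalling and are themselves induced by it. *PP2C-1* rose by 1.71 in leaves and 1.69 in roots on the log2 scale. *PP2C-2* rose 7.01-fold in leaves and 16.7-fold in roots. Its root salt arrays read 7.62, 7.58 and 5.63, the last from the replicate that stands apart, and its organ difference of -1.25 was not called with all arrays (adjusted p = 0.254) but was -1.76 without both arrays (limma, adjusted p = 0.000856). In the list of ABA synthesis, breakdown and signalling, 9 of 12 genes had no called difference, and the median difference was 0.3, against -0.02 over all probe sets. The exceptions were the bZIP factor gene *ABF4*, which rose 3.13-fold in leaves with a root change of 0.16, the aldehyde oxidase gene *AO1*, which rose 2.07-fold in leaves, and *AREB1*, another bZIP factor. *AREB1* changed by -0.19 in leaves and 0.88 in roots, neither a DEG, and its difference of -1.07 just passed the threshold (limma, adjusted p = 0.0182). Without both arrays that stand apart its root change was 1.15 (limma, adjusted p = 5.66e-05), a DEG. The leaf change of *AO1* was 0.83, under 2-fold, without both arrays. The differences of *AO1* and *AREB1* lost their call in several of the alternatives.

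Other genes that rose in both organs without a called difference belong to antioxidant, fatty acid and defence metabolism. *cat1*, a catalase, rose 5.13-fold in leaves and 5.76-fold in roots, and *alpha-DOX2*, which oxidises fatty acids, 3.83-fold and 4.13-fold. *THT1-3*, which joins phenolic acids to tyramine, rose 4.6-fold and 3.78-fold. For these 3 genes no salt array overlapped a control array of the same organ, as for 31.9% of all probe sets in leaves and 24.0% in roots. *CHI3*, an acidic chitinase, read 3.67, 8.21 and 8.09 in leaf controls and 9.71, 9.72 and 9.72 in leaf salt. The low first value is the array that stands apart. Without both such arrays the organ difference of *CHI3* was -3.14 (adjusted p = 5.92e-07), in place of -1.41 (adjusted p = 0.608), so that its rise was then larger in roots.

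A smaller group fell in both organs. *nii1*, the nitrite reductase of nitrate assimilation, read 9.12, 9.54 and 9.58 in leaf controls, 7.96, 7.93 and 7.9 in leaf salt, 6.19, 6.17 and 6.06 in root controls and 4.23, 4.27 and 4.73 in root salt. It fell 2.8-fold in leaves and 3.32-fold in roots, with an organ difference of 0.24 and an interval of -0.22 to 0.71. *GGP1*, an enzyme of ascorbate synthesis, fell 2.27-fold in leaves and 3.42-fold in roots, *GPAT*, a glycerol-3-phosphate acyltransferase, 2.28-fold and 2.18-fold, and *IPT4*, which makes cytokinins, 2.19-fold and 2.83-fold. The leaf change of *IPT4* was -0.99, just under 2-fold, without both arrays that stand apart. *Glb1*, a haemoglobin, fell 19.8-fold in leaves and 4.5-fold in roots. Its leaf salt arrays read 1.49, 1.53 and 1.39, below the median of all values, so the leaf fold is a lower bound. The fall of *Glb1* in roots lost its call without 1 of 5 root arrays in turn (limma, adjusted p between 0.0542 and 0.076). Its organ difference of -2.14 missed the threshold with all arrays (adjusted p = 0.0652) and passed it without both arrays that stand apart, at -2.61 (limma, adjusted p = 1.04e-06).

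Some transcripts rose in both organs but by unequal amounts. *TSI-1*, a stress-induced protein of the pathogenesis-related type, read 1.34, 1.6 and 1.52 in leaf controls and 2.39, 2.82 and 3.11 in leaf salt, a 2.44-fold rise. In roots it went from 5.2, 5.44 and 5.47 to 10.03, 9.87 and 9.8, a 23.1-fold rise, and the organ difference was -3.24 ± 0.23 (limma, adjusted p = 2.92e-06). The leaf controls of *TSI-1* lay below the median of all values, so its leaf rise is a lower bound and the organ difference may be smaller in size. *JA2*, a NAC transcription factor, rose 4.28-fold in leaves and 12.5-fold in roots (difference -1.55 ± 0.35, adjusted p = 0.0121). *fdh*, formate dehydrogenase, was the reverse. It rose 25.5-fold in leaves, where it started from 4.13, 3.34 and 3.32, and 10.2-fold in roots, where it started from 7.46, 7.37 and 7.72, and its level in salt remained higher in roots. Over all probe sets, 104 of the 355 that moved alike had a called organ difference, with the larger change in leaves for 79. A 95% interval of the difference that lay wholly within 2-fold was found for 114.

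The largest positive organ difference among named genes was that of a lipid transfer protein gene. Lipid transfer proteins are small secreted proteins that bind lipids and are common in the epidermis. *LE16* read 4.56, 4.56 and 5.05 in leaf controls and 9.53, 9.56 and 9.52 in leaf salt, while root arrays read between 4.13 and 4.35 in control and between 3.79 and 4.87 in salt. Leaf arrays did not overlap and root arrays did, and the organ difference was 4.86 ± 0.32 (limma, adjusted p = 1.52e-06). *TSW12* rose 17.5-fold in leaves, from 2.04, 1.59 and 1.54 to 6.08, 5.68 and 5.79, and changed by 0.1 in roots. Its leaf controls lay near or below the median of all values, so this fold is a lower bound. Its root arrays read between 1.06 and 1.42, where a fall could not have been seen. All 4 genes measured in the list had a called difference, but not in the same direction. *Dea1* fell 8.77-fold in leaves, and *ltpg1* rose in roots by 3.01 against a leaf change of 0.93 that was not called.

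Proteins that tomato leaves make on wounding and insect attack rose in leaves. Of 5 genes measured, 4 had a higher organ difference, with a median of 2.08. *mcpi*, an inhibitor of metallocarboxypeptidases, read 4.18, 2.65 and 2.45 in leaf controls and 7.19, 7.03 and 7.03 in leaf salt. In roots it read 1.76, 1.49 and 1.7 in control and 2.02, 1.69 and 3.52 in salt, so the root arrays overlapped. The highest control value in leaves and the highest salt value in roots belong to the arrays that stand apart, and without both the difference grew from 3.23 to 4.34. *TD2*, a threonine deaminase that breaks down threonine in the insect gut, showed the same 2 high values, with a difference of 3.27 ± 0.75 (limma, adjusted p = 0.0129) and of 4.40 without both arrays. Without limma's moderation of the variances its adjusted p was 0.0705. *LAPA1*, a leucine aminopeptidase, rose 3.92-fold in leaves, and *ARG2*, an arginase, 3.74-fold. *LAPA2*, another leucine aminopeptidase, was the exception, with changes of 0.17 in leaves and 0.53 in roots, neither a DEG. The jasmonate biosynthesis list did not move with them, since 2 of its 7 genes had a lower organ difference and none a higher one. *aos*, allene oxide synthase, fell 2.62-fold in leaves against a root change of 0.8, and *Fad7*, which supplies linolenic acid, fell 2.64-fold in leaves against a root change of 0.35.

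**Figure D2:**
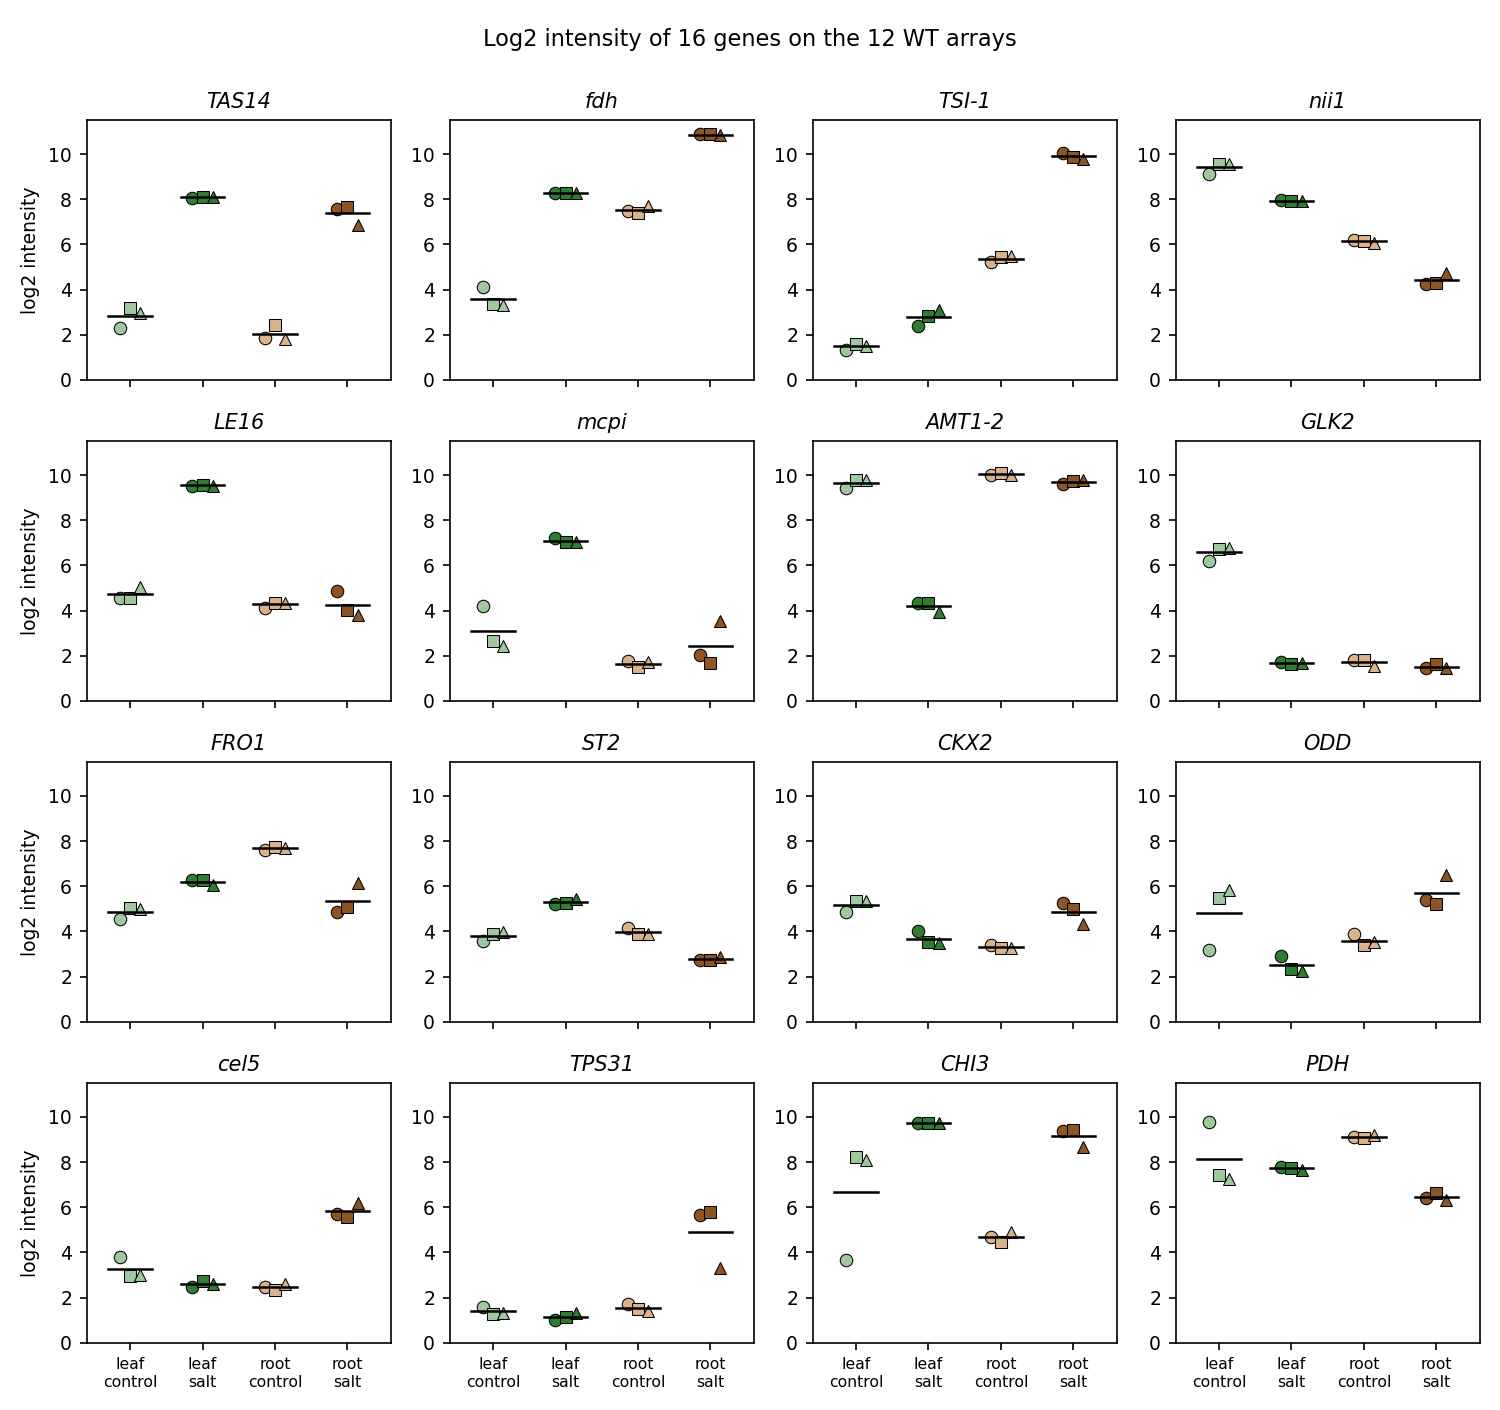
Log2 intensity (y axis) of 16 genes on each of the 12 WT arrays, in leaf control, leaf salt, root control and root salt. Circles, squares and triangles are replicates 1, 2 and 3, and bars are means of 3 arrays. *TAS14* rises and *nii1* falls in both organs, *LE16* and *mcpi* rise in leaves, *AMT1-2* and *GLK2* fall in leaves, *FRO1*, *ST2*, *CKX2* and *ODD* move in opposite directions, and *CHI3* and *PDH* show the leaf control array that stands apart, at 3.67 and 9.78.

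Of 13 regulators of light responses and flowering 2 fell in leaves, and of 13 carotenoid and isoprenoid enzymes 7 did, while none of either list was a DEG in roots. In roots 2 of the carotenoid genes and 1 of the light regulators rose when both arrays that stand apart were left out. *GLK2*, a transcription factor of chloroplast development, read 6.21, 6.71 and 6.79 in leaf controls and 1.74, 1.65 and 1.67 in leaf salt, a 29.5-fold fall. Its root arrays read between 1.44 and 1.83, in the lower 50% of all values, so that no fall could have been seen in roots (organ difference -4.66 ± 0.21, limma, adjusted p = 5.67e-08). *CO1*, a CONSTANS-like factor, fell by 4.7 on the log2 scale in leaves, from 5.92, 6.84 and 6.49 to 1.84, 1.72 and 1.58. It read between 1.6 and 1.72 on the root control arrays, where a fall could not have been seen either. In leaf salt *GLK2* and *CO1* read below the median of all values, so the sizes of both falls are lower bounds. The other 11 genes of the light and flowering list had no called difference, *GLK1* another factor of chloroplast development with a leaf change of -0.49, among them. Without both arrays that stand apart, 5 of the 13 were called.

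In the list of carotenoid and isoprenoid enzymes, 8 of 13 genes had a lower organ difference and none a higher one, with a median of -1.79. The count stayed at 8 without both arrays that stand apart and with the quantile normalization repeated within each organ. They cover successive steps. *dxs* and *DXR*, which begin plastid isoprenoid synthesis, fell 2.07-fold and 2.34-fold in leaves, with root changes of 0.77 and 0.57. *GGPS2* supplies the geranylgeranyl diphosphate, and its leaf change was -1.7. *Psy1* and *PSY2*, the phytoene synthases that commit it to carotenoids, fell by 2.11 and 1.94 on the log2 scale, and *LCY1*, a lycopene cyclase, fell by 2.11. *CrtR-b1*, a beta-carotene hydroxylase, read 7.94, 7.78 and 7.69 in leaf controls and 3.6, 3.79 and 3.73 in leaf salt, a 17.1-fold fall, against a root change of -0.77 that was not called. *CrtR-b2*, the other hydroxylase, had changes of -1.0 in leaves and 0.99 in roots and a difference of -1.99. The desaturases between phytoene synthase and lycopene cyclase, *pds* and *zds*, had leaf changes of 0.31 and -0.23, neither called.

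Of 8 nuclear genes of the photosynthetic apparatus, 2 had a lower organ difference. *PSBO*, of the oxygen-evolving complex, fell 3.65-fold in leaves. *PSBP*, of the same complex, had a leaf change of -0.13 that was not called, and its root arrays rose from between 2.14 and 2.29 to 4.4, 4.63 and 3.14. Among the 11 plastid-encoded photosystem genes and the 17 plastid-encoded ATP synthase and NDH genes, none was a DEG in either organ and none had a called difference. Their leaf control means ran from 10.6 to 12.34, close to the highest value of any probe set, 12.57, where a rise may not be measurable.

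Of 14 ethylene receptors and signalling genes 7 rose in leaves, by 2.03-fold to 3.49-fold, and 1 rose in roots. Receptors such as ETR2 act through the CTR kinases to keep the response off, EIN2 and the EIL transcription factors carry it, and EBF proteins degrade the EIL factors. A higher organ difference was called for 8 and a lower one for none, with a median of 1.11. *EIL3* read 4.54, 4.6 and 4.55 in leaf controls and 6.4, 6.35 and 6.34 in leaf salt, against 6.48, 6.38 and 6.42 and then 6.72, 6.57 and 6.65 in roots (organ difference 1.58 ± 0.13, limma, adjusted p = 7.5e-06). Its leaf level in salt thus came close to the root level. *EIL4* had a difference of 1.54 and *EIL2* of 1.35. The receptors *ETR2* and *ETR5* had differences of 1.11 and 1.14, and *CTR4* of 1.12. *EIL1* and *EBF1* had differences of 1.18 and 1.3 without being DEGs in either organ, with leaf changes of 0.74 and 0.73 and root changes of -0.44 and -0.57. *ETR4* was the receptor that rose in both organs, by 1.53 in leaves and 1.27 in roots. With the quantile normalization repeated within each organ 4 genes of the list had a called difference, 3 were DEGs in leaves, and the median difference was 0.88.

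**Figure D3:**
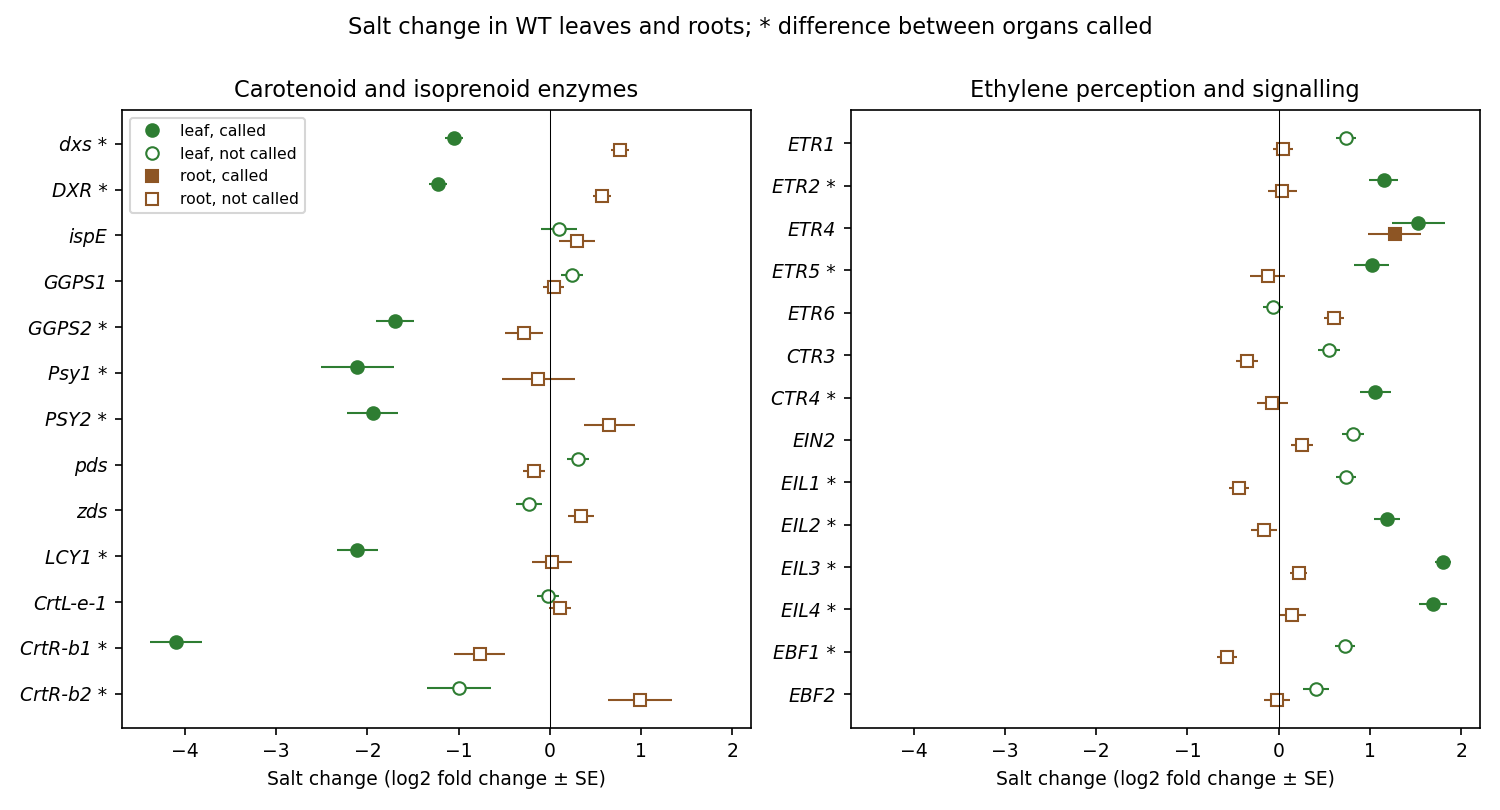
Salt change in WT leaves (green circles) and roots (brown squares) for the 13 carotenoid and isoprenoid enzymes and the 14 ethylene perception and signalling genes, as log2 fold change ± SE from the fit (n = 3 arrays per group). Filled symbols are DEGs and an asterisk marks a called organ difference. Of the carotenoid genes 7 fell in leaves and none was a DEG in roots, and of the ethylene genes 7 rose in leaves and *ETR4* also rose in roots. With the normalization within each organ 3 of the ethylene genes were DEGs in leaves.

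Of 13 ion transport and aquaporin genes 4 had a higher organ difference and none a lower one, and with the normalization within each organ 1 did. The Na+/H+ antiporter gene *sos1* rose 2.41-fold in leaves, from 5.26, 5.23 and 5.1 to 6.53, 6.51 and 6.36, and changed by 0.18 in roots, from 7.1, 6.99 and 7.02 to 7.33, 7.22 and 7.09. Leaves started lower and in salt stayed below the root arrays. *NHX2* rose 2.58-fold in leaves with a root change of 0.11. The organ differences were 1.09 ± 0.15 for *sos1* and 1.26 ± 0.18 for *NHX2* (limma, adjusted p = 0.000349 and 0.000492), and with the normalization within each organ they were 0.86 for *sos1* and 0.99 for *NHX2*, both under 2-fold. *NHX1* was the antiporter that rose in roots, with a root change of 1.42, a leaf change of 0.98 and no called difference. The largest of the 4 was that of *LKT1*, a potassium channel of the root, which fell 4.19-fold in roots. Its leaf controls read 2.65, 4.45 and 4.71, the first being the array that stands apart, and the difference was 2.66, or 2.19 without both arrays.

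In roots the transcripts that fell included the uptake systems of several nutrients. *FRO1*, the ferric-chelate reductase of iron uptake, read 7.61, 7.72 and 7.7 in root controls and 4.88, 5.1 and 6.13 in root salt, a 4.94-fold fall. In leaves it rose 2.56-fold, from 4.55, 5.02 and 4.98 to 6.29, 6.26 and 6.07, and no salt array overlapped a control array in either organ (organ difference 3.66 ± 0.36, limma, adjusted p = 3.5e-05). *NRAMP1*, a metal transporter, fell 3.73-fold in roots and stayed between 1.65 and 2.22 on the leaf arrays. *fer*, the transcription factor that controls iron uptake, had a root change of -0.47 that was not called. *ST1*, a sulfate transporter, fell 3.8-fold in roots, from between 10.4 and 10.46 to between 8.38 and 8.63, with a leaf level between 1.28 and 1.87. *PT2*, a phosphate transporter, fell 3.9-fold in roots, to 1.47, 1.28 and 1.94, below the median of all values, so this fold is a lower bound. On the leaf arrays *NRAMP1*, *ST1* and *PT2* read near or below that median, where a fall could not have been seen. The genes *FRO1*, *NRAMP1* and *PT2* are also 3 of the 5 root markers, while *RSI-1* and *fer* were not DEGs in roots.

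The largest negative organ difference among named genes belonged to nitrogen transport. *AMT1-2*, an ammonium transporter, read 9.41, 9.76 and 9.77 in leaf controls and 4.34, 4.32 and 3.94 in leaf salt, a 43.5-fold fall. In roots, where control arrays read 10.02, 10.08 and 10.02 and salt arrays 9.6, 9.73 and 9.76, the arrays did not overlap either but the change was only -0.34 and was not called. The organ difference was -5.1 ± 0.19 (limma, adjusted p = 1.99e-08). *AMT1-3* changed by -0.09 in leaves and -0.06 in roots. *gts1*, a glutamine synthetase, fell by 1.33 on the log2 scale in leaves with a root change of 0.25, and *st3*, a sulfate transporter, rose by 1.74 in leaves with a root change of 0.1. Over the 10 genes of nitrogen, sulfate and phosphate uptake and assimilation, 4 had a higher organ difference and 2 a lower one.

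Of the 80 probe sets with opposite responses, 5 carry a gene name. Besides *FRO1*, *ST2*, a sulfate transporter, rose in leaves from 3.56, 3.9 and 3.98 to 5.22, 5.24 and 5.42 and fell in roots from 4.16, 3.91 and 3.88 to 2.73, 2.75 and 2.87. Both organs started at a similar level, and in neither did a salt array overlap a control array. The organ difference was 2.68 ± 0.19 (limma, adjusted p = 2.04e-06). *CKX2*, a cytokinin oxidase, which breaks cytokinins down, fell 2.82-fold in leaves and rose 2.91-fold in roots (difference -3.04 ± 0.31, adjusted p = 4.55e-05). *cevi16* fell 2.16-fold in leaves and rose 2.29-fold in roots. *ODD* read 3.2, 5.49 and 5.82 in leaf controls, 2.92, 2.36 and 2.25 in leaf salt, 3.87, 3.41 and 3.52 in root controls and 5.39, 5.2 and 6.49 in root salt. Both arrays that stand apart are the extreme ones of their groups for *ODD*, and without them its difference was -4.83 in place of -4.41.

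Of 14 gibberellin genes 2 had a lower organ difference, and of 14 genes of cytokinin metabolism 3 did, with none higher in either list. Among all named genes 11.1% were lower and 12.4% higher, and whether the growth hormone lists depart from that was not tested. *GA20OX1*, of gibberellin synthesis, fell 4.88-fold in leaves with a root change of 0.4, and *GA2ox3*, which inactivates gibberellins, fell 3.01-fold with a root change of 0.07. The other 12 gibberellin genes had no called difference. Of 25 auxin genes, 3 were lower and 1 was higher. *IAA7*, a repressor of auxin responses, fell 4.93-fold in leaves against a root change of 0.85, and *PIN3*, an auxin efflux carrier, fell 2.96-fold. *ARF1*, an auxin response factor, was the gene that rose, by 1.35 in leaves. In cytokinin metabolism *LOG8*, which activates cytokinins, fell 2.92-fold in leaves. Root control means were 1.7 for *GA20OX1*, 1.93 for *PIN3* and 1.22 for *LOG8*, below the median of all values. A root fall of these genes could not have been seen. *CKX1*, another cytokinin oxidase, had a difference of -1.04 that lost its call when single arrays were left out (-0.87 without replicate 3 of the salt-stressed roots). Of 20 TCP factors, which regulate cell proliferation in shoots, 5 had a higher difference and 1 a lower one. *TCP3* rose 9.72-fold in leaves, from 5, 3.6 and 4.08 to 7.53, 7.57 and 7.43, and had a root change of -0.78 that was not called. Without both arrays that stand apart its root change was -1.09 (limma, adjusted p = 0.000484), a DEG. *TCP24* rose 3.43-fold in leaves with a root change of -0.67.

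Cell wall enzymes split by gene. Of 30 enzymes acting on xyloglucan, pectin and cellulose, 8 had a lower organ difference and 3 a higher one. *tXET-B2*, a xyloglucan endotransglycosylase, read 4.52, 7.46 and 7.25 in leaf controls and 2.15, 1.6 and 2.28 in leaf salt, a 21.1-fold fall, against a root change of 0.68 that was not called. The difference was -5.08 ± 0.9, and -6.51 without both arrays that stand apart. The root change was then 1.17 (limma, adjusted p = 0.00502), a DEG. *tXET-B1* moved in the same way on the same arrays, and these close relatives may share probes. *XTH6*, of the same enzyme family, rose 10.8-fold in leaves and changed by 0.3 in roots, and its leaf change of 3.43 was 2.86 without both arrays that stand apart. *cel5*, an endoglucanase, rose in roots, with 2.49, 2.35 and 2.6 in root controls and 5.68, 5.56 and 6.2 in root salt, a 10.0-fold rise. Its leaf controls, at 3.78, 2.97 and 3.0, lay above the root controls. The leaf change was -0.64 (difference -3.97 ± 0.3, limma, adjusted p = 4.5e-06). Without both arrays that stand apart, 8 of the 30 were higher and 9 lower. Among 14 expansins, which loosen walls, *EXP2* fell 5.95-fold in leaves, while *EXPB2* and *EXPA6* fell 3.36-fold and 4.25-fold in roots.

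Genes of sugar, proline and GABA metabolism were also divided between the organs. *ht3*, a hexose transporter, rose 5.99-fold in leaves, from 3.05, 3.79 and 3.16 to 5.88, 5.88 and 5.98, and its root change of -0.72 was not called. *sus3*, a sucrose synthase, rose 6.06-fold in leaves, whereas *sps*, sucrose phosphate synthase, rose in roots by 1.86 with a leaf change of 0.31. *bmy3*, a beta-amylase, fell by 2.39 on the log2 scale in leaves. Of the 23 sugar genes 5 were higher and 4 lower, and without both arrays that stand apart 8 were higher. In the formation and breakdown of GABA, *GAD2*, glutamate decarboxylase, rose 5.3-fold and *GABA-TP1*, a GABA transaminase, 3.91-fold in leaves, with root changes of 0.52 and 0.4. *ProT2*, a proline transporter, rose 2.67-fold in roots and its leaf change was -0.84. In polyamine synthesis *ODC*, ornithine decarboxylase, had changes of -1.33 in leaves and 1.32 in roots, with an organ difference of -2.65, and *adc1*, arginine decarboxylase, fell by 1.04 in leaves with a root change of 0.73. Over the 19 genes of proline, polyamine and GABA metabolism, 5 were higher and 3 lower. *PDH*, which breaks proline down, fell 6.32-fold in roots, from 9.12, 9.07 and 9.18 to 6.42, 6.65 and 6.34. Its leaf controls read 9.78, 7.43 and 7.26, the organ difference of 2.23 missed the threshold (adjusted p = 0.0542), and without both arrays that stand apart it was 2.97 (limma, adjusted p = 3.37e-07).

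Defence and secondary metabolism held further genes that rose in roots only. *TPS31*, a terpene synthase, read 1.71, 1.51 and 1.39 in root controls and 5.64, 5.81 and 3.33 in root salt and stayed between 1.02 and 1.6 on all leaf arrays (difference -3.63 ± 0.67, limma, adjusted p = 0.00347). The lowest root salt value is from the array that stands apart, and without both such arrays the root change was 4.18 in place of 3.39 and the difference -4.33. *CCR2*, a cinnamoyl-CoA reductase of lignin synthesis, rose 2.73-fold in roots, and *PR-1a1*, a pathogenesis-related protein, 2.49-fold. Of 17 flavonoid, terpene and amine enzymes, 2 had a higher organ difference and 4 a lower one. *PR-5*, another pathogenesis-related protein, rose 6.81-fold in leaves with a root change of 0.39. Of 7 subtilisin-like proteases, *P69A* rose by 1.73 in leaves and *SBT2* by 2.0 in roots, and the others had no called difference. The organ difference of *SBT2*, -2.23, lost its call without 1 of 7 arrays in turn and was -1.67 without both arrays that stand apart (limma, adjusted p = 0.000228). Of the 9 pathogenesis-related proteins and chitinases, 6 rose in leaves and 4 in roots, none fell in either, and 3 had a called organ difference.

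**Figure D4:**
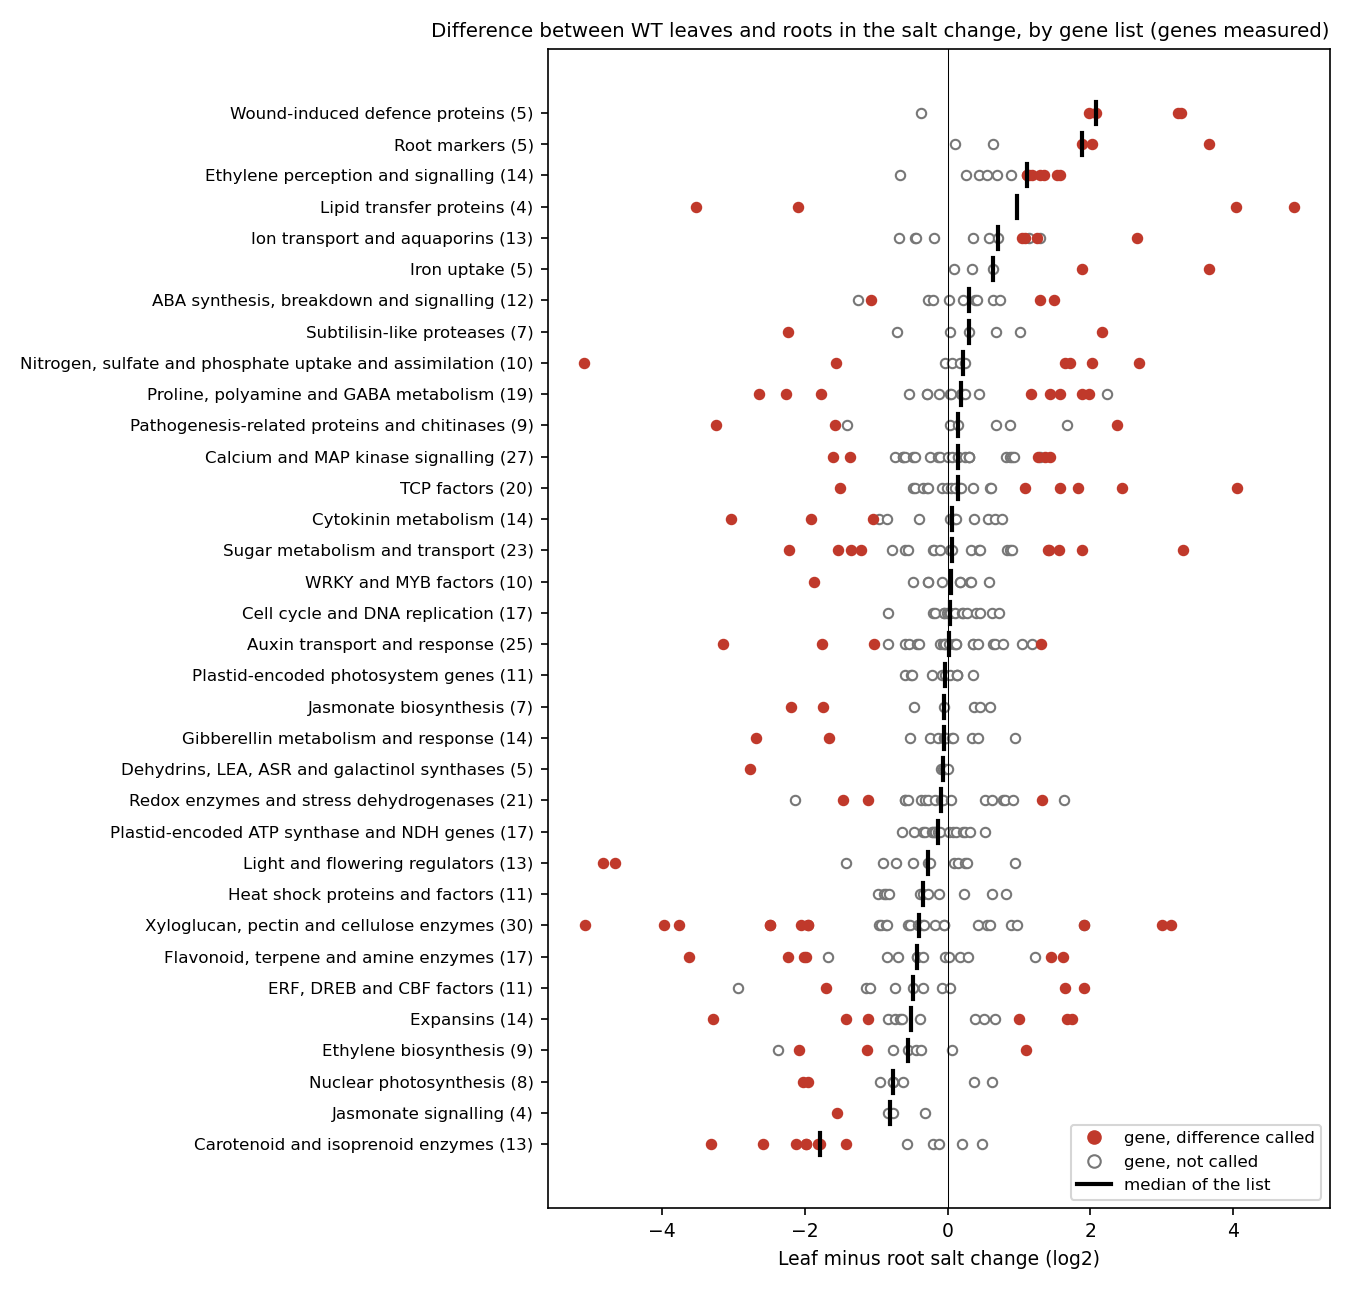
Organ difference (x axis, leaf minus root salt change, log2) of each measured gene in 34 gene lists, ordered by the median of the list. Red points are genes with a called difference, open points are genes without one, and the black bar is the median, which runs from -1.79 for the carotenoid and isoprenoid enzymes to 2.08 for the wound-induced defence proteins. The number of genes measured stands in parentheses.

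Transcription factors of the ethylene response family, which bind stress-responsive promoters, split as well. Of 11 ERF, DREB and CBF factors, 2 had a higher organ difference and 1 a lower one. *JERF1* rose by 1.2 in leaves with a root change of -0.45, *ERF4* fell by 1.03 in roots with a leaf change of 0.88, and *DREB2* fell by 2.35 in leaves with a root change of -0.65. Without both arrays that stand apart, 2 were higher and 4 lower. In ethylene synthesis 1 of 9 genes was higher and 2 were lower. *ACS1A* and *ACS2*, which make the precursor of ethylene, had organ differences of -2.08 and -1.13, and for *ACS2* it was the root level that rose, by 1.3. Of 10 WRKY and MYB factors, 1 had a called difference, *THM6*, which fell by 1.81 in leaves.

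Heat shock and cell cycle genes gave no called organ difference, and most redox and signalling genes gave none. A missing call does not show that the organs responded equally. None of 11 heat shock proteins and factors and none of 17 cell cycle and DNA replication genes had a called difference, and 1 gene of these, *krp2*, was a DEG, in roots. Without both arrays that stand apart each of the lists had 1 call. Of 21 redox enzymes and stress dehydrogenases 18 had none, and beside *fdh* the exceptions were the glutathione reductase gene *GR* and the haemoglobin gene *Glb2*, with organ differences of -1.12 and -1.46. Of 27 calcium and MAP kinase signalling genes 22 had none. Here *MAPKKKe*, a kinase of the MAP kinase cascade, changed by 1.69 in leaves and 0.26 in roots, and *CIPK6*, a kinase that binds calcium sensors, by -1.15 and 0.46. Without both arrays that stand apart, 6 of the 21 redox genes and 9 of the 27 signalling genes had a called difference.

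The same organ difference was set against that of the *res* mutant in a fit of all 24 arrays. In that fit 5454 probe sets had a called organ difference in WT and 4933 in *res*, and 1445 were called in the same direction in both, 26.5% of the WT list and 29.3% of the *res* list, while 463 were called in opposite directions. The difference between the genotypes was itself called for 5264 probe sets (7.76%). It was called for 56 of the 98 genes that the naming rule gave. Most of these genes were picked for their organ difference in WT, which is part of this contrast. Their share can therefore not be set against the 7.76%. *TAS14* and *ST2* gave no called difference between genotypes, at 1.07 ± 0.44 and -0.23 ± 0.27. *FRO1* went the other way in *res*, with a leaf change of 0.53 and a root change of 3.52.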

How the data were processed

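RNA of 3 pooled plants was hybridized to each Tomato Gene 1.1 ST array. The deposited values are log2 intensities that the authors obtained by robust multi-array average (RMA: background correction, log2 transformation and quantile normalization over the arrays, 1 value per probe set). Partek is named in the paper for annotation and tests, with its version not given in the sources used here. Values carry no detection calls, so precision rests on 3 arrays per group. They were used without rescaling. The 12 WT arrays were fitted as 4 groups with limma 3.58.1 (R 4.3.3), with moderated variances and Benjamini-Hochberg adjustment over 67795 probe sets, and tables and plots were made in Python 3.11.15. SE and 95% intervals come from this fit, and adjusted p named without a tool are limma's. The difference from *res* used all 24 arrays.

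Symbols came from the platform's table, updated through RefSeq. One symbol was given for 23194 probe sets, and the probe set with the highest mean represented a gene. Other probe sets carry no name here. The members and the 34 lists were chosen with earlier results of these data known. Genes named are the 8 largest organ differences in each direction whose arrays do not overlap, the 8 largest risen and fallen alike, up to 6 in each opposite pattern, up to 3 called genes per list with the smallest adjusted p, and 11 genes of prior interest. Genes whose role was not certain were left out, except 2 with opposite responses, and other list members named were chosen after their values were seen. Sequences were not used here. On simulated data 39 of 50 probe sets with a 2.5-fold organ difference and all 50 with 8-fold were called, with 5 false calls among 67595. At 1.5-fold, below the threshold, 1 of 50 was called. The simulated noise was normal and independent, with no array standing apart, so these rates may not hold for the real arrays. Alternatives were all 24 arrays, each organ fitted apart, an ordinary ANOVA, variance trend and robust settings, normalization within organs, 2 other thresholds, leaving out dim probe sets, 1 probe set per gene, a replicate block and leaving out arrays. Counts of list members without both arrays that stand apart, and with normalization within organs, were alternatives added after seeing the data.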

Additional observations from a re-analysis of the deposited data

Results flagged for a closer look

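In WT 4837 probe sets had salt changes that differed between leaves and roots by the test of the difference. For 5264 probe sets this organ difference differed again between *res* and WT (8093 without both arrays that stand apart), by the test in the fit of 24 arrays. The genes looked at were the 11 of prior interest and the named genes with opposite responses in WT (2 up and 3 down in leaves). Of these, 11 were of this kind. All values are the organ difference in *res* minus that in WT on the log2 scale. *ER5* had the largest, 10.53 ± 0.39 (limma, adjusted p = 2.25e-13), with a leaf change of 4.85 and a root change of -2.92 in *res*. *FRO1* had -6.65 ± 0.4. *AMT1-2* had 2.87, *CO1* 3.46, *ODD* 3.65 and *CKX2* 3.3, and in WT their organ difference was negative. Genes picked for a negative difference in WT tend to positive values here, because the WT difference is subtracted. *cevi16* had 3.52, *TSI-1* 3.3 and *JA2* 2.65, and in WT their organ differences and that of *ER5* were negative too. *FRO1*, with a positive difference in WT, tends to a negative value by the same subtraction. *nii1*, which fell alike in WT, had -2.12, and *PDH* had -3.78.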

How the results depend on the processing

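With both arrays that stand apart left out the opposite responses came to 162 and the difference between genotypes to 8093 probe sets. The cause was not tested. Leaving out each array in turn gave between 4311 and 5919 called organ differences (2493 to 3563 higher, 1716 to 2356 lower in leaves), 4454 to 5557 leaf DEGs, 1525 to 1931 root DEGs, 304 to 406 alike, 63 to 117 opposite, 2607 to 3779 leaf-only and 820 to 1170 root-only responses. With a threshold of 1.5-fold there were 7256 organ differences (4525 higher), 9377 leaf DEGs, 2963 root DEGs, 794 alike, 224 opposite and 4772 leaf-only responses. At 4-fold there were 1312 (625 higher, 687 lower), 1115, 470, 53, 11 and 744, with 297 root-only responses. The stricter reading of alike, a 95% interval within 2-fold, gave 114. Deviations of arrays with the same replicate number hardly correlated (r between -0.13 and 0.04), which does not show whether a number marks shared plants. With the replicate block 4758 organ differences were called. With the normalization within organs 52.6% of the called differences were higher in leaves, against 59.4%. The 2 other thresholds were applied to the counts and not to single genes. The fits of each organ apart tested no organ difference. No named gene changed direction in the alternative fits, and 92 of 112 tested gene values kept their call in every fit that held them. The cause of the other losses was not tested either. With 3 arrays a group and no detection calls, small changes and changes of dim probe sets are measured least well.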
